A study of Mus musculus with 4 samples.

Results

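Osteoblast regulators and bone matrix genes were examined as the 9 genes Runx2, Sp7, Alpl, Bglap, Bglap2, Ibsp, Spp1, Dmp1 and Phex, taken by symbol from the 56691 genes of the deposited RNA-seq table, with bone collagens left out. The table covers 4 sarcomas of W/+ mice, which carry 1 mutant allele of Trp53, given in the labels as p53R282W/+ with the residue numbered as in human p53, beside 1 wild-type allele. ATO 1 and ATO 2 came from mice given arsenic trioxide (ATO) in the drinking water until death, and Ctl 1 and Ctl 2 from mice of the same genotype whose labels name PBS. The tumors arose spontaneously, and the study describes angiosarcomas, soft tissue sarcomas and osteosarcomas in these mice, but the labels give neither the type of each sarcoma, nor its site, nor the age of the mouse at sampling, nor whether each sarcoma came from a mouse of its own. P-values below therefore measure the spread between these samples.

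Osteoblasts are the cells that lay down bone. Their formation depends on the transcription factor Runx2 and, downstream of it, on Sp7 (osterix), and maturing osteoblasts then make alkaline phosphatase (Alpl), which releases phosphate for mineral, and the matrix proteins osteopontin (Spp1), bone sialoprotein (Ibsp) and osteocalcin (Bglap and Bglap2). Cells buried in bone, the osteocytes, are known for Dmp1 and Phex, which act in mineralization and in the control of phosphate. Runx2, Alpl and above all Spp1 are also made by other cells, Spp1 for example by macrophages, whereas Sp7, Ibsp and osteocalcin are close to specific for bone and mineralizing cells.

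Total counts ranged from 15259695 to 18134000 per sarcoma, and a count of 0 allows up to between 0.165 and 0.197 CPM (counts scaled to library size), a limit that covers counting error only. Mitochondrial genes took 14.7% of the counts of ATO 2 and from 1.98% to 2.59% of those of the rest. Of 17188 genes tested between ATO and Ctl with edgeR's quasi-likelihood test, 0 passed a Benjamini-Hochberg adjusted p of 0.05 (smallest 0.570), 1463 had an unadjusted p under 0.05, and DESeq2 called 754. Sarcomas of a group differed with a biological coefficient of variation of 62.5%. Signal from 8 mesenchymal and 6 epithelial genes was compared by summed FPKM (counts scaled to exon length and library size, which allows genes to be compared). The mesenchymal sum was 3999 in ATO 1, 911.6 in ATO 2, 4062 in Ctl 1 and 1449 in Ctl 2, against 1.05 to 20.2 for the epithelial genes. In ATO 1 most of it came from the collagen genes Col1a1 (2413.42) and Col1a2 (1321.95). All 4 sarcomas thus had far more signal from the mesenchymal than from the epithelial list, which cannot tell tumor from other connective tissue.

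The 250 bases before the transcription start are shown for an osteocalcin gene, read almost only in ATO 1, and for Spp1, read at a high level in all 4 sarcomas, because both hold the letters ACCACA, the core that Runx factors bind. The sequences are from RefSeq on GRCm38.p6, 5′ to 3′ on the strand of the gene, at chr3:88384467-88384716 (minus strand) and chr5:104434861-104435110 (plus strand), with the match in capitals:
Bglap: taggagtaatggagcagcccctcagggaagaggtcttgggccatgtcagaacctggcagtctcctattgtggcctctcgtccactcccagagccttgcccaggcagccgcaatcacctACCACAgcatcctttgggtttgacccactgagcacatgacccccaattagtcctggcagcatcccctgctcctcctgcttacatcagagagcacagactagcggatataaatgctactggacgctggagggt
Spp1: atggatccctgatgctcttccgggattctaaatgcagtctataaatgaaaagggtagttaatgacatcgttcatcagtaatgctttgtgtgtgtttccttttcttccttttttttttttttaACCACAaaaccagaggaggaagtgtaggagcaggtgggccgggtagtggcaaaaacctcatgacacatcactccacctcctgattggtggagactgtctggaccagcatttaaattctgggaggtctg
The match began 132 bases before the start of Bglap and 128 bases before that of Spp1. Of the 9 genes, 7 were in the RefSeq table with 10 start sites, of which 4 (1 each of Bglap, Dmp1, Spp1 and Runx2) held ACCACA or its reverse complement TGTGGT within this window, and 4614 of the 32851 windows of all genes (14.045%) did. In the GENCODE M21 gene annotation, 170 of the 250 bases of the Runx2 window are untranslated exon, and the Runx2 match lies there. Bglap and Spp1 thus shared these letters, while their levels across the sarcomas differed, as given next.

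The 9 genes were read at high levels together in a single sarcoma, ATO 1. The median FPKM of the 9 genes was 58.45 in ATO 1, 0.28 in ATO 2, 0.31 in Ctl 1 and 0.39 in Ctl 2. ATO 1 had an FPKM of at least 1 for 9 of the 9 genes, ATO 2 and Ctl 1 for 3 and Ctl 2 for 4. By CPM normalized with the trimmed mean of M values (TMM), ATO 1 was the highest of the 4 sarcomas for 9 of 9 genes, and it was highest for 23.9% of all genes tested. The shares of all genes that were highest in ATO 2, Ctl 1 and Ctl 2 were 25.5%, 26.9% and 23.7%, and 0 of the 9 genes were. ATO 1 exceeded the next sarcoma at least 10-fold for 7 of 9 genes, the exceptions being Runx2 and Spp1. Among genes that passed the filter on low counts, which Bglap2 did not, this held for 6 of 8, against 1.12% of all genes tested. An excess of that size in ATO 2, Ctl 1 or Ctl 2 was seen for 0.809%, 0.221% and 0.268% of all genes and for 0 of the 9. The plot of FPKM by gene and sarcoma shows this separation. In bulk tissue, fewer cells of a type and less RNA per cell cannot be told apart.

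**Figure D1:**
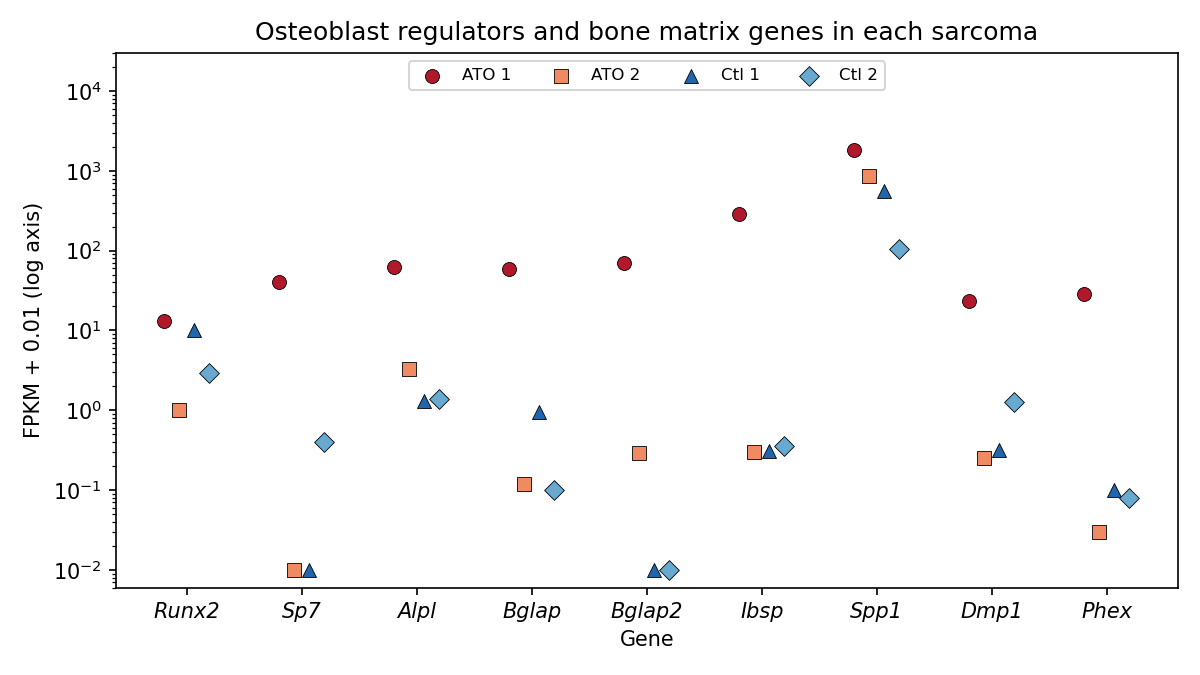
FPKM + 0.01 on a log axis for each of the 9 genes (x axis) in ATO 1, ATO 2, Ctl 1 and Ctl 2, 1 point per sarcoma, with points at 0.01 standing for an FPKM of 0. ATO 1 is the top point for each gene, by a wide margin for 7 of them, while Spp1 is above 100 FPKM in all 4 sarcomas and Runx2 is nearly as high in Ctl 1 (10.19) as in ATO 1 (13.12).

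Both transcription factors differed in how widely they were read. Runx2 (ENSMUSG00000039153; GRCm38 chromosome 17, 44495987 to 44814797) had an FPKM of 13.12 in ATO 1, 1.01 in ATO 2, 10.19 in Ctl 1 and 2.92 in Ctl 2. The groups overlapped, with the lowest and the highest value both in ATO. ATO 1 exceeded Ctl 1 by only 1.40-fold on TMM-normalized CPM (95% interval 1.31 to 1.49, exact, counting error only). The antisense gene Runx2os1 covers 5.87% of the Runx2 exon bases, and since the methods do not state whether counting used strand, reads there cannot be assigned with certainty.

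Sp7 (ENSMUSG00000060284; chromosome 15, 102356606 to 102367182), which acts after Runx2 and is needed for osteoblasts to form, had 2497 counts in ATO 1, 0 in ATO 2, 0 in Ctl 1 and 24 in Ctl 2, or 40.52, 0, 0 and 0.39 FPKM. ATO 1 held 99.1% of its summed CPM and exceeded Ctl 2 by 113-fold (95% interval 76.1 to 177, exact, counting error only). Ctl 1, with Runx2 at 10.19 FPKM, thus had no Sp7 count, so that the ratio of the 2 factors differed widely between ATO 1 and Ctl 1.

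Alpl (ENSMUSG00000028766; chromosome 4, 137741733 to 137796384) had an FPKM of 61.9 in ATO 1, 3.28 in ATO 2, 1.28 in Ctl 1 and 1.38 in Ctl 2. Each ATO sarcoma exceeded both Ctl sarcomas, and ATO 1 lay 15.4-fold above ATO 2 by CPM (95% interval 13.3 to 17.8, exact). Phex (ENSMUSG00000057457; chromosome X, 157162075 to 157415312), a membrane endopeptidase of osteoblasts and osteocytes whose loss causes phosphate wasting, had 3285 counts in ATO 1, 2 in ATO 2, 10 in Ctl 1 and 8 in Ctl 2. ATO 1 therefore stood apart, with 28.8 FPKM against at most 0.09, and ATO 2 was the lowest of the 4.

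Ibsp, Dmp1 and Spp1 encode secreted acidic glycoproteins of mineralized matrix and lie side by side on chromosome 5, with Mepe between Ibsp and Spp1. Ibsp (ENSMUSG00000029306; 104299171 to 104311469) had 10911 counts in ATO 1 and 9, 11 and 13 in ATO 2, Ctl 1 and Ctl 2, or 290.95, 0.29, 0.30 and 0.35 FPKM. Its excess in ATO 1, 831-fold over ATO 2 by CPM (95% interval 438 to 1818, exact), was the largest of the 9 genes. Dmp1 (ENSMUSG00000029307; 104202613 to 104214102) had 23.38 FPKM in ATO 1, 0.24 in ATO 2, 0.31 in Ctl 1 and 1.25 in Ctl 2. Ctl 2 ranked next after ATO 1, at 62 counts against 10 and 15, and was also next for Sp7.

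Spp1 (ENSMUSG00000029304; 104435118 to 104441050) was the most abundant of the 9 genes per length in each sarcoma. Its FPKM was 1846.72 in ATO 1, 869.65 in ATO 2, 563.95 in Ctl 1 and 105.41 in Ctl 2. The groups did not overlap, and ATO 1 exceeded ATO 2 by 1.73-fold by CPM (95% interval 1.70 to 1.76, exact), so that the values fell in steps rather than in 1 sarcoma against the rest. The gene Gm42793 shares 18.8% of the exon bases of Spp1 on the same strand. The 9 macrophage markers were all read in all 4 sarcomas, with a summed FPKM of 1552 and 6550 in ATO 1 and ATO 2 and of 2611 and 1188 in Ctl 1 and Ctl 2. Their order differed from that of Spp1, with ATO 2 first, then Ctl 1 and then ATO 1, and both were lowest in Ctl 2. Lyz2 alone gave 5114.59 of the macrophage sum in ATO 2. The part of macrophages in the Spp1 values was not tested.

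The genes around this cluster, chosen by position after the values were seen, were mixed. Sparcl1, near Dmp1, had 48.65 and 71.98 FPKM in ATO 1 and ATO 2 and 72.52 and 232.61 in Ctl 1 and Ctl 2. Gm42793, which overlaps Spp1, had 325 counts in ATO 1 and 23, 13 and 8 in ATO 2, Ctl 1 and Ctl 2, and reads of the 2 genes may not be separable. Pkd2, on the far side of Spp1, had 12.46 and 9.26 FPKM in ATO and 20.64 and 17.14 in Ctl. Mepe, inside the cluster, had 50 counts in ATO 1 and 0 in the other 3 sarcomas. ATO 1 was thus the highest sarcoma for Dmp1, Ibsp, Mepe, Spp1 and Gm42793, and not for Sparcl1 or Pkd2. Farther out, Klhl8 was also highest in ATO 1, at 4.25 FPKM against 2.16 in ATO 2, 2.13 in Ctl 1 and 1.1 in Ctl 2. Hsd17b11 and Nudt9 were highest in Ctl 2.

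Osteocalcin, the abundant small protein of mature osteoblasts, is encoded in the mouse by Bglap and Bglap2 on chromosome 3, next to the related Bglap3. Bglap (ENSMUSG00000074483; 88383501 to 88384464) had 655 counts in ATO 1, 1 in ATO 2, 10 in Ctl 1 and 1 in Ctl 2, or 58.45, 0.11, 0.93 and 0.09 FPKM. Bglap2 (ENSMUSG00000074486; 88377736 to 88378699) had 590 counts in ATO 1, 2 in ATO 2 and 0 in both Ctl sarcomas, or 69.08, 0.28, 0 and 0 FPKM. Both were thus read almost only in ATO 1. The 2 genes are near copies, and in the GENCODE M21 transcripts 19.6% of the 150-base windows of Bglap also occur in Bglap2, so that the split of reads between them is uncertain. Bglap3 had 40 counts in ATO 1, 46 in ATO 2 and 0 in both Ctl sarcomas. The sum of the 3 genes, which does not depend on the split, was 1285 counts in ATO 1, 49 in ATO 2, 10 in Ctl 1 and 1 in Ctl 2. Bglap3 gave 46 of the 49 counts in ATO 2. Reads that fit more than 1 of these genes may be missing from the sum, since the multi-mapping settings are not given.

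The comparison of ATO with Ctl asked whether these genes differed with treatment. Of the 9 genes, 8 passed the filter on low counts, the exception being Bglap2, and 0 of these 8 passed an adjusted p of 0.05 in edgeR, as for 0% of all genes, while DESeq2, which called 754 genes in all (4.13% of those with an adjusted p), called 4 of the 9 (Alpl, Bglap, Ibsp and Phex). An unadjusted p under 0.05 was reached by 2 of them (Alpl, 0.0212, and Ibsp, 0.0378, edgeR), against 8.51% of all genes. Both were higher in ATO, as were 5.44% of all genes at this p, while 3.07% were lower. Values of ATO were all above those of Ctl for 3 of the 8 (Alpl, Ibsp and Spp1) by TMM-normalized CPM and all below for 0, against 19.7% and 20.2% of all genes. For Ibsp this rested on 9 counts in ATO 2 against 11 and 13 in Ctl, and by FPKM its groups overlapped. With 2 sarcomas a group, an exact permutation test cannot go below a p of 0.33.

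The mean level of Ibsp in ATO was 300.1 ± 423 CPM, against 0.617 ± 0.0541 CPM in Ctl (SD, n = 2 each). The fitted difference was 8.91 on the log2 scale (SE 3.11), with an adjusted p of 0.570 in edgeR. Alpl reached 132 ± 164 CPM in ATO against 4.89 ± 0.216 CPM in Ctl (SD, n = 2 each), with a log2 difference of 4.76 (SE 1.40) and likewise an adjusted p of 0.570 in edgeR. In both genes the SD in ATO exceeded the mean, whereas the Ctl sarcomas were close to each other. For Spp1 the levels were 2392 ± 905 and 505.5 ± 493 CPM (SD, n = 2 each), with a log2 difference of 2.24 (SE 1.05) and an adjusted p of 0.621 in edgeR. Runx2 had the smallest fitted difference of the 8, 0.25 (SE 1.21), with an adjusted p of 0.968 in edgeR. The remaining log2 fold changes were 7.58 for Phex, 6.80 for Sp7, 5.94 for Bglap and 4.05 for Dmp1, with adjusted p from 0.585 to 0.639. For Bglap2 the mean level in ATO was at least 105-fold higher than 3 counts per Ctl library, the limit that counts of 0 allow. The median log2 fold change of the 8 was 5.35, against -0.016 for all genes.

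These differences rested on ATO 1. Without ATO 1 the edgeR log2 fold change of Ibsp was 0.21 and that of Alpl 1.71, while those of Runx2, Dmp1, Phex and Sp7 were -2.30, -1.29, -1.51 and -6.39, the last from 0 counts in ATO 2 and in Ctl 1 against 24 in Ctl 2 and so dependent on the prior count of the fit. Spp1 kept a positive difference of 1.77 without ATO 1 and 2.58 without ATO 2, and it was 3.92 without Ctl 1 and 1.48 without Ctl 2. The median of the genes tested was -1.29 without ATO 1 and 6.94 without ATO 2. The plot of fitted differences shows how far the values moved.

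**Figure D2:**
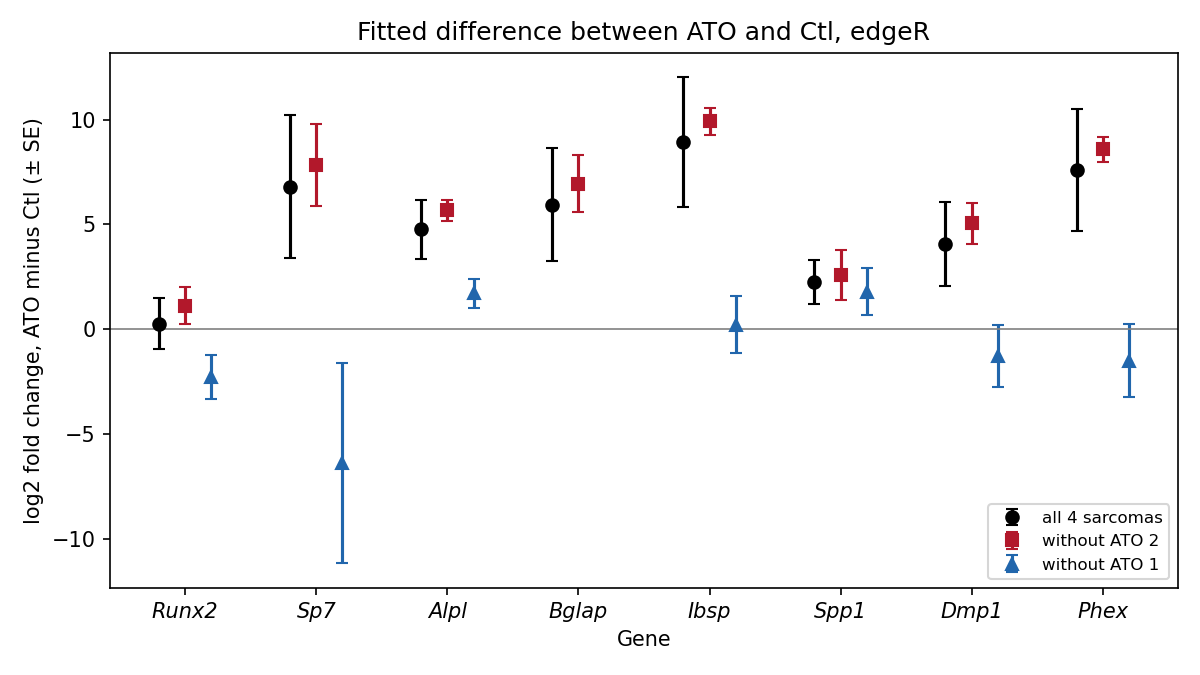
Log2 fold change of ATO minus Ctl (y axis, error bars ± SE) from edgeR for the 8 genes tested, with all 4 sarcomas (circles), without ATO 2 (squares) and without ATO 1 (triangles, not available for Bglap, which then failed the filter). Circles and squares lie above 0 for each gene, while the triangles of Runx2, Sp7, Dmp1 and Phex lie below 0.

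Further lists of bone genes were counted, comprising transcription factors, signalling genes, mineralization genes and other matrix genes. Of their 56 genes 49 were tested, 0 passed an adjusted p of 0.05 in edgeR, and at an unadjusted p under 0.05 2 were higher (Fam20c and Bglap3) and 3 lower in ATO (Msx1, Sox11 and Slc20a1). These 5 of 49 compare with 8.51% of all genes. DESeq2 called 5 of the 56, with Dlx3, Fam20c, Panx3 and Bglap3 higher and Sox11 lower, against 4.13% of all genes with an adjusted p. Apart from Slc20a1 these genes are named after their values were seen. Of the 49, 12 had both ATO values above both Ctl values and 12 had both below, or close to the shares of all genes given above. ATO 1 was the highest sarcoma for 18 of the 49, against 23.9% of all genes tested. By list this held for 3 of 10 transcription factors, 8 of 18 signalling, 5 of 12 mineralization and 2 of 9 other matrix genes tested. Ctl 1 was the highest for 7 of the 10 transcription factors, against 26.9% of all genes tested.

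Among 13 transcription factors, the median log2 fold change was -0.58 over the 10 tested. The most abundant, Atf4, which drives late osteoblast genes and the stress response, had 110.69 and 60.39 FPKM in ATO and 95.36 and 114.02 in Ctl. Cbfb, the partner subunit of the Runx factors, had 34.37 and 21.03 FPKM in ATO and 63.39 and 38.15 in Ctl, so that ATO lay below Ctl. Twist1, which restrains Runx2, and Zfp521 were highest in Ctl 1, with 32.99 and 14.23 FPKM. Dlx5, Dlx3 and Dlx6, picked out after their values were seen, followed Sp7 instead. Dlx5, an activator of Sp7, had 22.93 FPKM in ATO 1, 0 in ATO 2, 0.18 in Ctl 1 and 1.48 in Ctl 2. Dlx6 had 252 counts in ATO 1 and 0 elsewhere.

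Among 20 signalling genes, 9 of the 18 tested had a higher and 9 a lower fitted level in ATO (median 0.081). Smad5 and Smad1, which carry the bone morphogenetic protein signal, had 15.79 and 9.04 FPKM in ATO 1, 9.77 and 5.79 in ATO 2, 25.8 and 10.41 in Ctl 1, and 23.25 and 30.03 in Ctl 2. Both ATO sarcomas were thus below both Ctl sarcomas for each. Bmp4 was highest in Ctl 2 (24.85 FPKM), and Pth1r, the receptor of parathyroid hormone, was alike in ATO 1 and Ctl 1 (21.59 and 23.33). The vitamin D receptor Vdr and the growth factor receptor Fgfr2, picked out after their values were seen, were again highest in ATO 1, with 27.47 and 17.87 FPKM against at most 4.12 and 2.22 in the other sarcomas. Sost, an osteocyte inhibitor of Wnt signalling, also picked out after its values were seen, reached 2.54 FPKM (95 counts) in ATO 1 and at most 0.05 in the others.

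Among 13 mineralization genes, 8 of the 12 tested had a higher and 4 a lower fitted level in ATO (median 0.59). Mgp, an inhibitor of mineralization, had 310.43 and 65.26 FPKM in ATO and 22.72 and 267.25 in Ctl, so that it did not separate ATO 1. Ank, which exports pyrophosphate, ranged from 11.11 to 44.93 FPKM. The phosphate transporter Slc20a1 had 18.63 and 7.28 FPKM in ATO and 33.3 and 55.14 in Ctl (log2 difference -1.55, adjusted p 0.579 in edgeR), and Slc20a2 ranged from 3.93 to 18.01. Panx3 and Ifitm5, picked out after their values were seen and both known from osteoblasts, had 25.57 and 23.57 FPKM in ATO 1 and at most 0.1 and 2.4 in the others.

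The 10 other matrix genes, many of them made by fibroblasts too, were spread differently. Sparc (osteonectin) had 985.43 and 494.43 FPKM in ATO and 1719.12 and 1383.15 in Ctl. Bgn and Postn were highest in Ctl 1, with 541.32 and 383.27 FPKM. Thbs1 was lowest in Ctl 1 (50.07 FPKM) and ranged from 112.61 to 146.38 in the others. Ctl 1 was the highest sarcoma for 5 of these 10 genes and ATO 1 for 3. The heat map of the bone lists shows both patterns side by side.

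**Figure D3:**
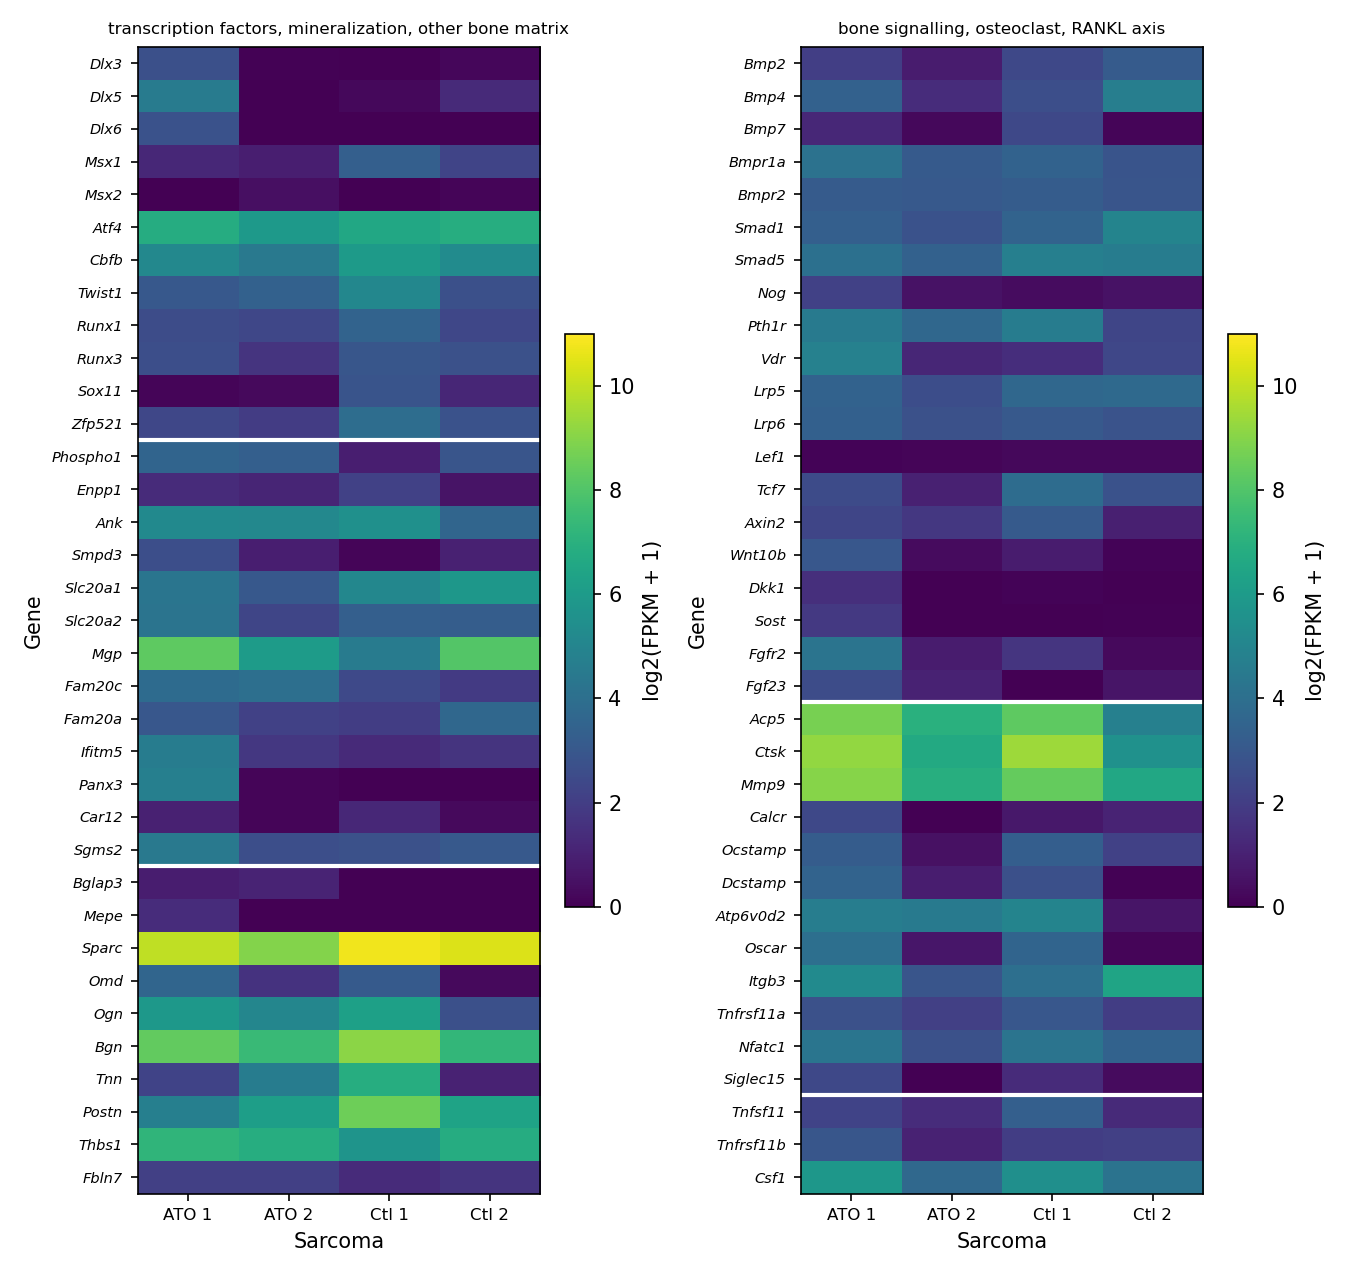
Log2(FPKM + 1) as colour for each gene shown (rows) in each sarcoma (columns), with white lines between lists. Dlx3, Dlx5, Dlx6, Panx3, Ifitm5 and Vdr are each brightest in ATO 1, Tnn and Postn are brightest in Ctl 1, and Acp5, Ctsk and Mmp9 are bright in both ATO 1 and Ctl 1. Tnn is named after its values were seen.

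Osteoclasts, the cells that resorb bone, were followed with 12 genes. ATO 1 and Ctl 1, a pair picked after the values were seen, were the 2 highest sarcomas for 9 of them, against 15.2% of all genes tested. Acp5 (tartrate-resistant acid phosphatase) had 427.69 FPKM in ATO 1, 126.42 in ATO 2, 308.77 in Ctl 1 and 26.51 in Ctl 2. Ctsk, the collagen-degrading protease of osteoclasts, had 590.29, 102.76, 676.86 and 46.44 FPKM, and Mmp9 511.58, 118.08, 332.36 and 96.4, in the same order. Of the 3 exceptions, Itgb3 was highest in Ctl 2 (83.86 FPKM), Calcr had Ctl 2 next after ATO 1, and Atp6v0d2 was lowest in Ctl 2 and close in the other sarcomas, at 65.0, 73.0 and 74.4 CPM in ATO 1, ATO 2 and Ctl 1, the latter pair of genes being named after their values were seen. In 0 of the 12 genes, all tested, were both ATO values above or both below the Ctl values, against 19.7% and 20.2% of all genes. For the 9 genes with ATO 1 and Ctl 1 highest, this overlap follows from that order and is not a separate result. Of the 12, 0 passed in edgeR, 0 in DESeq2 and 0 at an unadjusted p under 0.05 in edgeR, against 0%, 4.13% and 8.51% of all genes. The same 3 counts were 0 for the 3 genes of the RANKL axis, which follow. Tnfsf11 (RANKL), the signal for osteoclast formation, had 3.7 and 1.61 FPKM in ATO and 9.14 and 1.49 in Ctl, its decoy receptor Tnfrsf11b 6.79, 1.07, 3.05 and 3.28 in ATO 1, ATO 2, Ctl 1 and Ctl 2, and Csf1 56.03, 12.19, 44.18 and 17.41. ATO 1 and Ctl 1 were also the 2 highest for 2 of these 3 genes. Ctl 1 thus had Acp5, Ctsk, Mmp9 and Runx2 within 2-fold of ATO 1 by FPKM, but 10 or fewer counts of Sp7, Bglap, Bglap2 and Phex. Itgb3, Calcr and Siglec15, the last named after its values were seen, were not within 2-fold, and the other osteoclast genes were. These 3 had 36.87, 4.19 and 4.25 FPKM in ATO 1 and 15.04, 0.63 and 1.54 in Ctl 1.

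Genes of other cell types moved with ATO 1 as well. Of 10 chondrocyte genes, 8 were highest in ATO 1, and so were 6 of the 8 tested, against 23.9% of all genes tested. Of the 8 that passed the filter on low counts, 5 were at least 10-fold above the next sarcoma in ATO 1, against the 1.12% of all genes given above. The list's summed FPKM was 162.3 in ATO 1, 7.43 in ATO 2, 8.18 in Ctl 1 and 10.65 in Ctl 2. In edgeR 0 of the 8 tested passed and 1 was lower in ATO at an unadjusted p under 0.05, while DESeq2 called Col2a1 and Col11a2 higher. The shares of all genes were 0%, 3.07% and 4.13% (DESeq2, either direction). Col11a2, which osteoblasts also express, had 100.87 FPKM in ATO 1 and Col2a1, the cartilage collagen, 21.28, against at most 2.38 and 0.25 in the others, while Sox9, the factor that defines chondrocytes, named here after its values were seen, was lower in ATO 1 (1.84) than in Ctl 1 (5.25) and Ctl 2 (4.43). The 8 skeletal muscle genes were all highest in ATO 1, against 23.9% of all genes tested. Their summed FPKM was 13660 in ATO 1, 997.6 in ATO 2, 6.76 in Ctl 1 and 120.5 in Ctl 2. Of these 8 genes, 0 passed in edgeR, 7 were higher in ATO at an unadjusted p under 0.05 and DESeq2 called 7. Here the shares of all genes were 0%, 5.44% and 4.13% (DESeq2, either direction). Of 8 marrow and blood genes, Elane, Mpo and Ngp, named after their values were seen, which are made by immature neutrophils in marrow, were highest in ATO 1, Elane and Mpo with 68.2 and 48.77 FPKM against at most 3.28 and 3.4, whereas the other 5, hemoglobin genes among them, were highest in Ctl 2. The part of bone, marrow, cartilage or muscle taken with the tumor in the ATO 1 values was not tested.

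**Figure D4:**
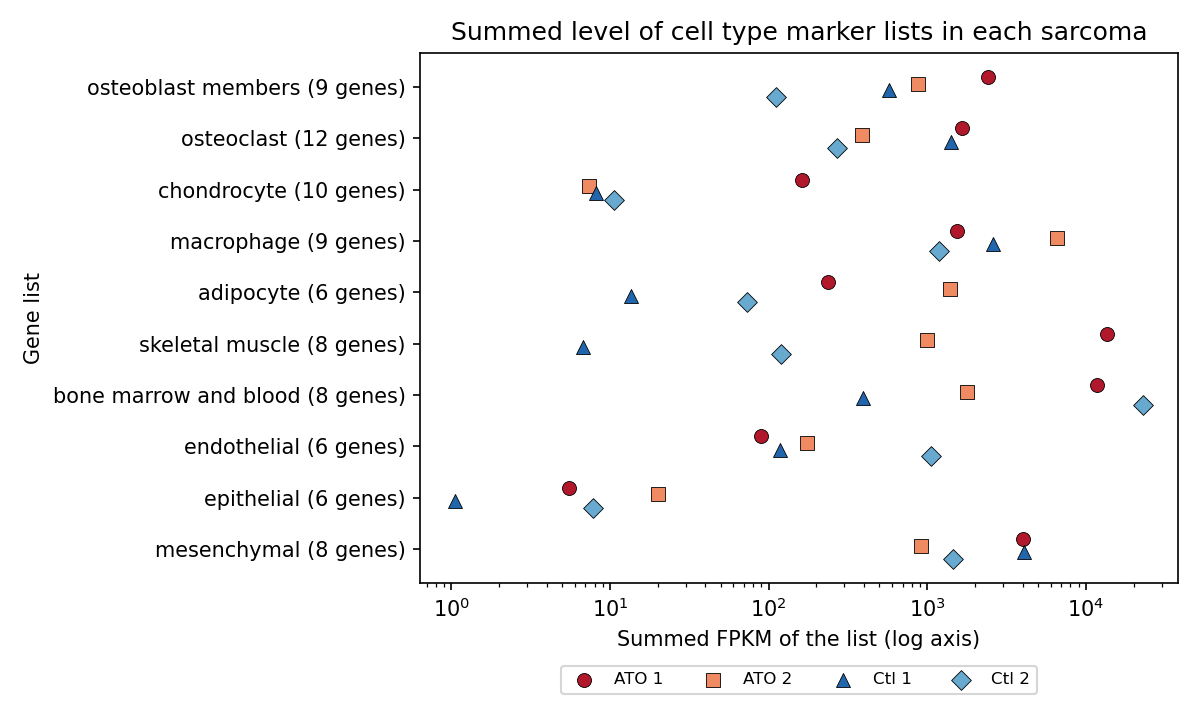
Summed FPKM of 10 gene lists (y axis) in each sarcoma on a log axis (x axis), 1 point per sarcoma. Spp1 makes up most of the osteoblast sum in each sarcoma, so that this row mainly follows Spp1. It gives 1846.72 of 2433 in ATO 1 and 869.65 of 874.9 in ATO 2. In Ctl 1 it gives 563.95 of 577.1 and in Ctl 2 105.41 of 111.9. ATO 1 leads the osteoblast, osteoclast, chondrocyte and skeletal muscle lists, ATO 2 the macrophage, adipocyte and epithelial lists, Ctl 2 the marrow and blood and the endothelial lists, and Ctl 1 and ATO 1 are level at the top of the mesenchymal list.

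The genes outside all lists whose profile was most like that of Sp7 were sought among 8406 genes that averaged 5 FPKM or more, by the root mean square difference of centred log2(FPKM + 1) over the 4 sarcomas. The 5 closest were Igfn1 (difference 0.079), Rhag (0.115), Cldn13 (0.147), Kel (0.154) and Krt23 (0.157). Igfn1 is expressed in skeletal muscle, and Rhag and Kel encode blood group proteins of red cells. Their FPKM in ATO 1 lay between 32.17 (Krt23) and 50.52 (Rhag) and in the other sarcomas at 0.8 or below. The profile of Sp7 over 4 sarcomas was therefore shared with genes of other tissues and is not particular to bone genes.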

How the data were processed

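Bulk RNA-seq of 4 sarcomas was grouped by treatment from the sample titles. The authors checked reads with FastQC (0.10.1), trimmed them with Cutadapt (1.9.1), aligned them with HISAT2 (2.0.1) to GRCm38 and made raw read counts per gene with HTSeq, which were deposited without normalization. The authors also deposited FPKM, the count scaled to exon length and total count. Strand and multi-mapping settings are not given in the sources used here. Only 2.83% of the 52073 genes shared with GENCODE M21 (GRCm38) have its positions in the table, so positions were taken from GENCODE by identifier. All 4 samples also carry, in the labels, a protocol for growing cultured cells.

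Counts were tested in edgeR 4.0.16 (R 4.3.3; filterByExpr, TMM, trended dispersion, quasi-likelihood F-test) over 17188 genes holding at least 99.49% of counts, with no block and Benjamini-Hochberg adjustment at 0.05. The SE was the log2 fold change divided by the square root of F. Alternatives were DESeq2 1.42.0 (all genes, its own filter), edgeR with DESeq2's size factors, unfiltered or with a replicate block, limma 3.58.1 on log2 FPKM, mitochondrial genes or each sarcoma left out, and, for the count of genes that did not overlap, FPKM and other scalings. The tests were tried on simulated counts. Promoters, overlaps and figures were made in Python 3.11.15. Replicates shared the same count in 122 (ATO) and 147 (Ctl) of the genes tested, so none was a duplicate.

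The genes and lists were chosen with earlier results of these data known. The lists were osteoblast genes, transcription factors, signalling, mineralization, other matrix, osteoclast, RANKL axis, chondrocyte, macrophage, adipocyte, skeletal muscle, marrow and blood, endothelial, epithelial and mesenchymal genes. Genes named were the 9 genes, up to 4 of each list with the highest mean FPKM, and the 5 genes nearest to Sp7. The values of 1 gene of the lists, which stays in their counts, are not reported here. Others are marked as chosen after their values were seen.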

Additional observations from a re-analysis of the deposited data

How the results depend on the processing

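With 2 sarcomas a group, the spread between them limits every comparison here, and leaving 1 out leaves a group of 1 that is assumed to vary like the other group. In edgeR 0 genes were called, and also 0 with DESeq2's size factors, with the replicate block, in both limma fits, without mitochondrial genes and with each sarcoma left out. DESeq2 called 754 genes (4.13% of those with an adjusted p) and unfiltered edgeR 541 of 30859, and each called 4 of the 9 genes. DESeq2 called Alpl (log2 fold change 4.77, adjusted p 0.00229), Bglap (5.96, 0.0364), Ibsp (8.94, 5.13e-05) and Phex (7.61, 0.00148). Without a filter edgeR called Alpl (4.74, adjusted p 0.012), Ibsp (8.89, 0.0122), Phex (7.57, 0.0202) and Bglap2, which the filter had removed. The cause was not tested.

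The number of genes with a lower fitted level was 0. It was 1 (Runx2) under the replicate block, in both limma fits and without Ctl 2, and leaving out single sarcomas gave 0 to 4. Runx2, 0.25 in edgeR, was -0.30 with the replicate block, -0.31 in limma on log2(FPKM + 1) and -0.54 on log2(FPKM + 0.1), and between -2.30 and 1.44 when single sarcomas were left out. Such ranges were -6.39 to 13.15 for Sp7, -1.29 to 5.35 for Dmp1, -1.51 to 8.59 for Phex and -1.29 to 6.94 for the median, each lowest without ATO 1. The number with both ATO above both Ctl sarcomas was 3, and that with both below was 0. With each sarcoma left out, in comparisons chosen after seeing the data, the numbers without overlap ranged from 3 to 8 and from 0 to 2. These ranges cannot be set beside the main numbers, because 1 sarcoma against 2 fails to overlap more easily. No share of all genes is given for them. The 8, without ATO 2, restates that ATO 1 was the highest sarcoma for each of the 8 genes tested. The median of all genes was -0.18 and -0.27 in limma and -0.016 in edgeR. Both groups use replicate numbers 1 and 2, but no source says that they pair the sarcomas, and deviations of sarcomas with the same number had a correlation of 5.04e-05. The replicate block changed no call. It lowered the median of the genes tested from 5.35 to 3.75, and limma gave 2.41 and 3.09. Limma averages the logs of single sarcomas and adds a pseudocount, and the part of each in the lower values was not tested. For Ibsp limma gave 3.87 and 4.65 against 8.91 in edgeR.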

Other observations

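The other sarcomas each led marker lists of their own. Ctl 2 was the highest sarcoma for 6 of 6 endothelial genes, against 23.7% of all genes tested, with Cdh5 (VE-cadherin) at 371.97 FPKM against 24.68 to 62.68 in the others and Pecam1 at 312.43 against 28.03 to 49.29. Tek and Tie1, receptors of the vessel wall, had 118.74 and 118.35 FPKM in Ctl 2 and at most 10.28 and 24.58 elsewhere. Hbb-bs and Hba-a1, the hemoglobin genes, were also highest in Ctl 2, with 11236 and 6247 FPKM, followed by 5479 and 4055 in ATO 1, and S100a8 and S100a9 had the same order at the top. Of the 6 endothelial and the 8 marrow and blood genes 0 passed in edgeR or DESeq2, and 0 had an unadjusted p under 0.05 in edgeR. The shares of all genes were 0%, 4.13% and 8.51%, so that few or no calls would be usual in lists this short.

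ATO 2 was the highest sarcoma for 6 of 6 adipocyte genes, against 25.5% of all genes tested, and for 7 of 9 macrophage genes. Of the adipocyte genes 0 passed in edgeR, 5 were higher in ATO at an unadjusted p under 0.05 and DESeq2 called 5. The shares of all genes were 0%, 5.44% and 4.13% (DESeq2, either direction). For the macrophage genes all 3 counts were 0, as they were for the 8 mesenchymal and the 6 epithelial genes. Fabp4, a fatty acid carrier, had 809.09 FPKM in ATO 2, 154.8 in ATO 1, 12.63 in Ctl 1 and 66.1 in Ctl 2, and the lipid droplet gene Cidec 247.72, 23.53, 0.03 and 0.03. Lyz2 had 5114.59 FPKM in ATO 2 and between 594.32 and 1497.08 in the others. Ctl 1 was the highest sarcoma for 5 of 8 mesenchymal genes, against 26.9% of all genes tested. Col1a1, the main collagen of bone and of many other tissues, had 2413.42 FPKM in ATO 1 and 2276.42 in Ctl 1, against 315.1 in ATO 2 and 273.32 in Ctl 2, so that ATO 1 and Ctl 1 were the 2 highest, as for 9 of 12 osteoclast genes. This pair, picked after the values were seen, was the highest for 4 of the 8 mesenchymal genes. Vim was instead lowest in ATO 1, with 130.51 FPKM, and highest in Ctl 2, with 811.64.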
